A study of Mus musculus with 22 samples.

Results

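The comparison described here is the effect of removing the serine S133 from CREB, the cAMP response element binding protein, averaged over CREB with and without the serine S40. Of the 22 libraries in the series, 8 entered it, chosen by their labels and by run. The 4 libraries without S133 were S133A replicates 1 and 2, in which S133 is replaced by alanine, and S40A-S133A replicates 1 and 2, in which both serines are replaced. The 4 libraries with S133 were WT replicates 3 and 4, which carried wild-type CREB, and S40A replicates 3 and 4, in which the serine S40 is replaced by alanine. Every group consisted of cortical neurons from embryonic day 16.5 C57BL/6 mice labelled Creb1-/-, kept for 7 days in culture. A herpes simplex virus (HSV) delivered each CREB form for 8 h. All groups, those with S133 included, were silenced with 1 µM tetrodotoxin (TTX) and 100 µM D-AP5 and then depolarized for 2 h with 55 mM KCl. Undepolarized neurons are therefore in none of the groups. GFP virus replicates 3 and 4, treated in the same way and without any CREB virus, are given as a background level.

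CREB binds the cAMP response element (CRE) in promoters. When calcium or cAMP signalling activates protein kinase A, CaM kinase IV or an RSK kinase, S133 is phosphorylated, and the phosphorylated kinase-inducible domain binds the KIX domain of the coactivators CBP and p300. S40 is a site of O-GlcNAc, a single sugar attached by the enzyme OGT. In cortical neurons CREB is known for its part in activity-dependent transcription of genes such as Fos, Bdnf and Nr4a1.

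The residues that define the groups are shown with their reference codons in transcript Creb1-201 of 341 residues (GENCODE M21, GRCm38, plus strand), since the mutant sequences of the viruses are not analysed here. Capitals mark the serine codon. Each stretch crosses an exon boundary. The S133 codon lies in exon 5 at chr1:64566310-64566312 and the S40 codon in exon 3 at chr1:64558506-64558508.
S133 codon: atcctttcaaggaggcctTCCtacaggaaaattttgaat
S40 codon: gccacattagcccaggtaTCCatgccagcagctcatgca

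The files hold FPKM, fragments per kilobase of transcript scaled to the number of mapped fragments, for 24490 gene entries per library. Values are given here after scaling between the 8 libraries by factors of 0.948 to 1.07. A difference is a difference of log2(scaled FPKM + 1), which understates the change of low genes. The 8 libraries held 11759 entries with a mean of at least 1 FPKM, and the confidence limits beside the FPKM values correspond to about 18.4 M to 25.9 M fragments per library from genes with 1 transcript, or to 12.2 M to 17.5 M when summed over all entries with limits above 0. The labels do not say that replicates came from separate cultures. A p-value here therefore covers the scatter among these libraries, part or all of which can be technical. In bulk RNA, fewer cells of a type and less RNA per cell cannot be told apart.

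Creb1 itself was at 568 and 1839 scaled FPKM in S133A and at 674 and 2132 in S40A-S133A, against 760 and 2064 in WT and 570 and 2298 in S40A, in each case with run 1 given before run 2. The GFP libraries of the same runs held 14.9 and 11.1 scaled FPKM. All 8 CREB libraries were far above both GFP libraries, and the groups without and with S133 overlapped. An exact two-sided permutation test over the 4 libraries on each side gave p = 0.629 for their Creb1 means, where the smallest p it allows is 0.0286. That test did not hold run fixed, so the difference between runs widens its spread and a modest S133 difference could not be seen by it. In the limma fit with run as a term, the log2 difference was -0.11, with a 95% interval of -0.41 to 0.19. Runs differed instead, with 643 ± 92.5 in run 1 and 2083 ± 190 in run 2 (SD, n = 4 each), a ratio of 3.24.

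Libraries without S133 stood further apart from the others in run 1 than in run 2. Among genes other than small RNAs, taken as loci of at least 300 bp, with a mean of at least 5 FPKM in the run, both libraries without S133 were at least 2-fold (1 on the log2 scale) below both libraries with S133 for 59 genes in run 1 and for 0 genes in run 2. They were at least 2-fold above for 5 genes in run 1 and for 0 in run 2. These counts were made after the values were seen, and they cover 8248 genes in run 1 and 8202 in run 2. The 59 genes had a median difference of -1.49 in run 1, with a range of -4.42 to -1.14, and a median of 0.06 in run 2, with a range of -0.20 to 0.39. The largest differences, of BC029722, Emc9 and Rasl10a, came from values listed at 0 in both libraries without S133 of run 1. Their size depends on the FPKM added before the log and is no measured fold change.

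The members of the 59 named here were chosen after their values were seen. Nrgn, neurogranin, a calmodulin-binding postsynaptic protein, was at 76.1 in S133A and 74.7 in S40A-S133A in run 1, against 359 in WT and 337 in S40A. In run 2 it was at 382 in S133A and 354 in S40A-S133A, against 344 in WT and 305 in S40A. The low level was thus seen in both libraries without S133 of run 1 and in neither of run 2.

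Slc17a7, the vesicular glutamate transporter VGLUT1, followed the same order. It was at 31.3 in S133A and 30.1 in S40A-S133A, against 92.5 in WT and 85.3 in S40A, in run 1. In run 2 it was at 76.1 in S133A and 74.4 in S40A-S133A, against 67.8 in WT and 63.3 in S40A. Cck, the neuropeptide cholecystokinin, was at 9.88 and 9.40 in S133A and S40A-S133A of run 1, against 30.7 in both WT and S40A of that run. Hpca, the calcium sensor hippocalcin, was at 12.0 and 12.6 in those libraries without S133, against 30.3 in WT and 33.4 in S40A. Both genes were between 28.2 and 39.4 in all 4 libraries of run 2. Others of the 59 were Tac1, the substance P precursor, Kcnip2, a potassium channel interacting protein, Chrm1, a muscarinic receptor, and Tubb4a, a beta-tubulin. Camk1, a calmodulin kinase, had another order. In run 1 it was at 2.35 in S133A and 2.09 in S40A-S133A, against 13.1 in WT and 14.3 in S40A. The run 1 GFP library was at 5.11 and all run 2 libraries were between 2.37 and 3.19. For Camk1 the libraries that stood out were thus WT and S40A of run 1.

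The 5 genes at least 2-fold higher in run 1 were Fn1, fibronectin, at 12.8 in S133A and 12.5 in S40A-S133A, against 2.73 in WT and 3.03 in S40A, together with Sfrp1, a secreted Wnt antagonist, Ntng2, a netrin-G axon guidance protein, Elmo1, a Rac activator subunit, and the pseudogene Pisd-ps3. In run 2 Fn1 was at 2.29 and 1.502 in S133A and S40A-S133A, against 2.04 in WT and 1.53 in S40A. In run 2 the 5 genes differed by -0.17 to 0.05 on the log2 scale. The run 1 GFP library was at least 2-fold below both libraries without S133 for 3 of the 5. Pisd-ps3 was at 27.6 in S133A and 24.0 in S40A-S133A of run 1, against 11.3 in WT and 10.1 in S40A. It was at 24.5 in the run 1 GFP library and between 19.1 and 23.4 in run 2, so WT and S40A of run 1 were the low ones.

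For 45 of the 59 genes the run 1 GFP library was at least 2-fold above both libraries without S133, with Nrgn at 324 and Slc17a7 at 83.8 scaled FPKM. Over 11451 genes other than small RNAs, Pearson's r between log2 values was 0.993 for S133A with S40A-S133A in run 1, 0.989 for WT with S40A, and between 0.974 and 0.979 across the pair of S133 states. The run 1 GFP library had r = 0.964 with S133A and 0.966 with S40A-S133A, against 0.987 with WT and 0.972 with S40A, so over all genes it was no closer to S40A than the libraries without S133 were. In run 2 all 10 values were between 0.987 and 0.995. The genes are not independent, so these are descriptions of the libraries.

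A difference of the S133 effect between the runs was tested in a fit with an S133 by run term, which was added after the data had been seen. By limma with Benjamini-Hochberg adjustment, 213 of 11759 entries differed between runs at adjusted p under 0.05 (1.81%), of which 200 were not small RNAs. The S133 difference of run 1 minus that of run 2 was below 0 for 177 of the 200 and above 0 for 23, a sign that does not say in which run the gene differed. Nrgn differed by -2.37 ± 0.09 between run 1 and run 2 (SE, adjusted p = 0.0011), and Slc17a7 by -1.70 ± 0.07 (adjusted p = 0.0012). Fn1 differed by 1.77 ± 0.20 (adjusted p = 0.0237). At unadjusted p under 0.05 there were 1878 entries (16.0%). The labels do not say what else separated the libraries of run 1. Pooled values below are set beside values of each run or library for the genes described in detail and for most of the lists.

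**Figure D1:**
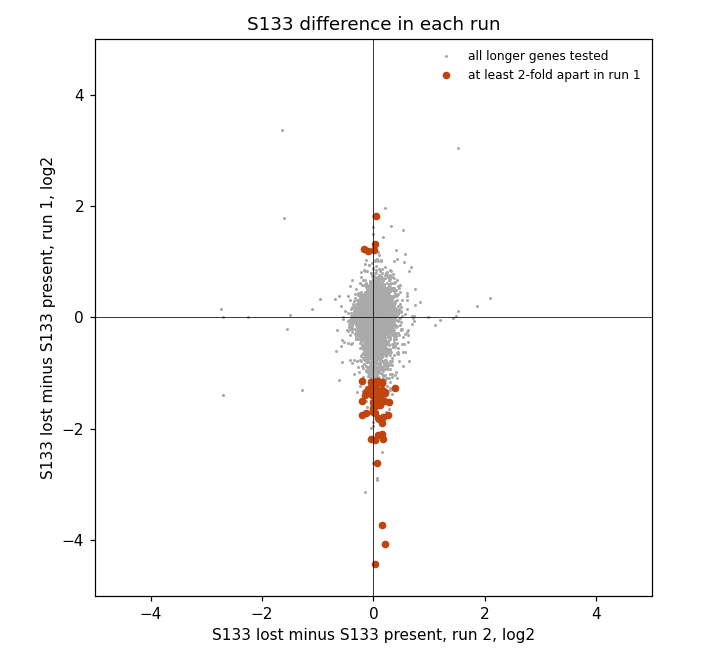
Difference between the mean of the libraries without S133 and the mean of those with S133 in log2(FPKM + 1), in run 1 (vertical axis) and in run 2 (horizontal axis), for 11451 genes other than small RNAs. Orange points are the 64 genes at least 2-fold apart in run 1, which lie between -0.20 and 0.39 in run 2.

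Pooled over S40 status and runs, loss of S133 left 1 entry past the threshold. The fit held S133, S40 and run as terms, with 4 residual degrees of freedom. By limma with Benjamini-Hochberg adjustment, 1 of 11759 entries was higher without S133 (0.0085%) and 0 were lower. At unadjusted p under 0.05, 675 entries were higher (5.74%) and 568 were lower (4.83%), 1243 in all (10.6%). Over all entries the median difference was 0.01 and 52.5% were above 0. Within run 1 the median size of the difference was 0.13 and within run 2 it was 0.07, over genes other than small RNAs.

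The entry that passed was Snora41, a small nucleolar RNA of the H/ACA class, whose members guide pseudouridylation of ribosomal RNA. It lies inside the host gene Eef1b2 at chr1:63179023-63179135 in the deposited coordinates, 99.4% of which overlapped the GRCm38 gene of the same symbol. It was at 14.9 and 16.8 scaled FPKM in S133A and at 15.4 and 20.8 in S40A-S133A, and was listed at 0 in both WT and both S40A libraries (limma adjusted p = 6.78e-05). The groups did not overlap. Among GFP libraries of the same runs it was at 17.6 in run 1 and listed at 0 in run 2. In the 6 libraries of the earlier 8 h set it was listed at 0 in 5 and at 13.7 FPKM in 1 GFP library. It no longer passed once the GFP libraries entered the fit.

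Its host gene, Eef1b2, a subunit of the translation elongation factor eEF1, was at 129 and 145 in S133A and at 121 and 156 in S40A-S133A, against 131 and 162 in WT and 119 and 161 in S40A, so the groups overlapped. Entries this short were often listed at 0. Of 307 tested entries shorter than 300 bp, 272 were at 0 in 1 to 7 of the 8 libraries and 28 in exactly 4, against 60 of 11452 longer entries at 0 in 1 to 7. Whether the 0 of Snora41 reflects its abundance or the estimation of short entries was not tested.

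The genes next in order by unadjusted p did not pass the adjusted threshold, and each had an adjusted p of 0.454 by limma. They were taken as the 12 genes in each direction with the smallest p, the same sign in all 4 within-run pairs and a mean of at least 5 FPKM. Over all entries, 10.7% were higher in 4 of 4 pairs and 8.84% were lower in 4 of 4.

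Hap1, the huntingtin-associated protein of vesicle transport, was at 17.2 and 15.2 in S133A and at 18.5 and 14.8 in S40A-S133A, against 10.0 and 11.2 in WT and 11.7 and 13.1 in S40A. All 4 libraries without S133 were above all 4 with it, as was the case for 1.07% of all entries. Its means were 16.4 ± 1.75 without S133 and 11.5 ± 1.27 with S133 (SD, n = 4 each), a log2 difference of 0.48 with a 95% interval of 0.25 to 0.71. The GFP libraries were at 6.999 and 11.7.

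Nrp2, a neuropilin that binds class 3 semaphorins, was at 11.9 and 6.08 in S133A and at 11.9 and 5.62 in S40A-S133A, against 5.98 and 4.05 in WT and 7.77 and 4.89 in S40A. The libraries without S133 were higher within each run, while run 2 without S133 overlapped run 1 with it. Glra2, the glycine receptor alpha 2 subunit, was at 18.9 and 12.5 in S133A and at 20.4 and 10.98 in S40A-S133A, against 13.2 and 9.79 in WT and 13.2 and 9.47 in S40A. It too was higher within each run, with a pooled difference of 0.40 ± 0.08 (SE).

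Ldlrad3, a receptor of the low density lipoprotein receptor class A family, was at 10.3 and 7.37 in S133A and at 10.1 and 7.54 in S40A-S133A, against 7.09 and 6.20 in WT and 7.59 and 5.92 in S40A. Its pooled difference was 0.34 ± 0.06 (SE) and it was higher in all 4 pairs. The other members of the 12 were Cnih3, an AMPA receptor auxiliary subunit, Neto2, an auxiliary subunit of kainate receptors, Islr2, a transmembrane protein of growing axons, Prdx4, a peroxiredoxin of the endoplasmic reticulum, Rab24, a small GTPase linked to autophagy, Chp1, a calcineurin-like calcium binding protein, Serf1 and Tmem29. Their pooled differences ranged from 0.18 for Chp1 to 0.37 for Cnih3. Of these 8, Neto2, Prdx4 and Chp1 had groups that did not overlap.

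Among the 12 lower genes, Mrps34, a protein of the small mitochondrial ribosomal subunit, was at 26.2 and 23.2 in S133A and at 23.9 and 21.8 in S40A-S133A, against 31.0 and 26.6 in WT and 28.9 and 27.8 in S40A. The groups did not overlap, as was the case in this direction for 1.12% of all entries. Its difference was -0.26 ± 0.05 (SE). Rnmtl1, a methyltransferase of mitochondrial ribosomal RNA, was at 6.84 and 6.10 in S133A and at 6.14 and 6.15 in S40A-S133A, against 8.31 and 7.22 in WT and 9.28 and 8.15 in S40A. Its groups did not overlap either, and the difference was -0.34 ± 0.07 (SE).

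Cox10, an enzyme of heme A synthesis for cytochrome c oxidase, differed by -0.21 in run 1 and -0.19 in run 2, also without overlap. Klf10, a Krüppel-like factor and the only immediate early gene of the 24, was at 8.87 and 18.7 in S133A and at 8.06 and 17.4 in S40A-S133A, against 13.1 and 26.2 in WT and 9.74 and 19.5 in S40A. It was lower without S133 within each run and overlapped across runs. The remaining 8 were Baiap2, an actin-binding scaffold of dendritic spines, Rrp9, a component of the U3 small nucleolar ribonucleoprotein, Rcor3, a member of the CoREST corepressor family, Qsox1, a sulfhydryl oxidase, Pepd, a dipeptidase, the ribosomal protein Rps2, the oxysterol-binding family member Osbpl10, and Rps6kl1. Their differences ranged from -0.31 for Rps6kl1 to -0.22 for Rcor3.

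**Figure D2:**
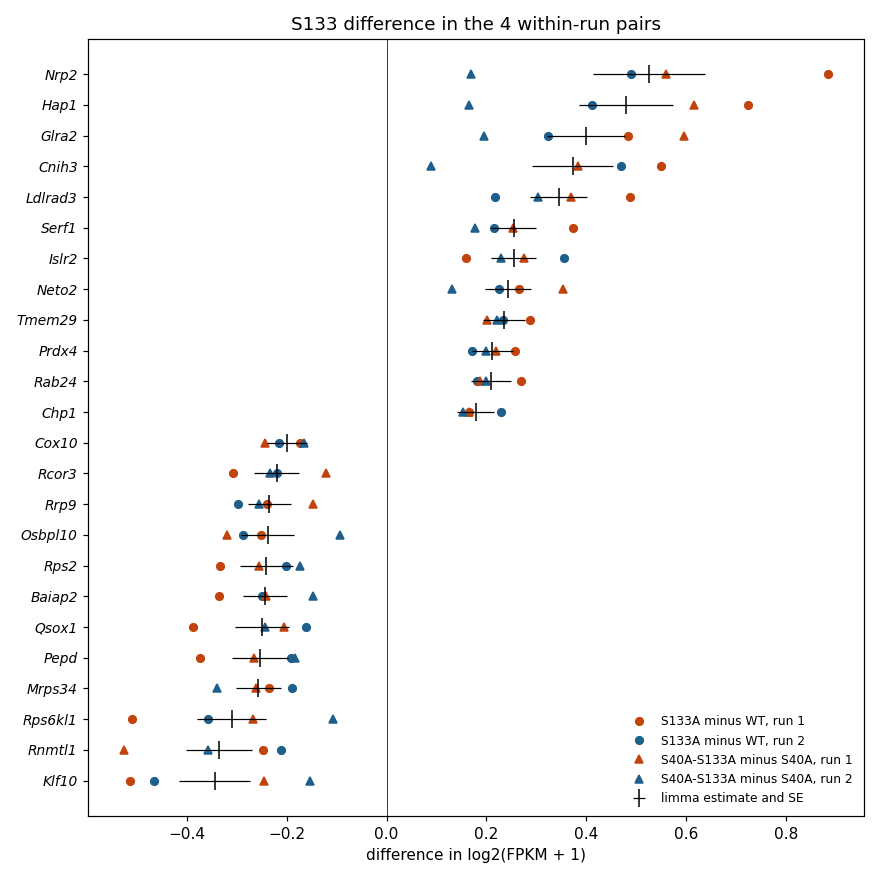
Difference in log2(FPKM + 1) between matched libraries without and with S133 of one run (circles, S133A minus WT, and triangles, S40A-S133A minus S40A, in orange for run 1 and blue for run 2), with the limma estimate and its SE as a black tick and bar, for the 12 genes higher and the 12 lower with the smallest p. All 4 pairs lie on one side of 0 for each gene by the choice of genes, and the pooled differences run from -0.34 for Klf10 to 0.53 for Nrp2.

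With the S133 by run term in the fit, 201 entries passed for the S133 term by limma at adjusted p under 0.05, against 1 without the term. Of these, 186 were not small RNAs, 24 of them higher and 162 lower. The difference was larger in run 1 for 183 of the 186, and it had opposite signs in the 2 runs for 101 of them. Of the 186, 50 had the same sign in 4 of 4 pairs. In 3 of these 50 the run difference had an unadjusted p of 0.05 or more by limma, which does not show that the runs were alike. Ldlrad3 differed by 0.43 in run 1 and 0.26 in run 2 (adjusted p for S133 = 0.0396, unadjusted p for the run difference = 0.12). Glra2 differed by 0.54 and 0.26 in those runs (limma adjusted p for S133 = 0.0444, unadjusted p for the run difference = 0.051). Gal was the other (limma adjusted p for S133 = 0.0348, unadjusted p for the run difference = 0.0628).

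Gal, the precursor of the neuropeptide galanin and a described CREB target, was at 0.985 and 2.29 in S133A and at 0.323 and 1.61 in S40A-S133A, against 2.74 and 3.57 in WT and 2.35 and 3.37 in S40A. Every library without S133 was below every library with it. The difference was -0.87 ± 0.15 (SE), -1.13 in run 1 and -0.61 in run 2, at a level of only 1.30 ± 0.84 without S133 and 3.01 ± 0.56 with S133 (SD, n = 4 each). The GFP libraries were at 1.83 and 1.48, so both lay below all 4 libraries with S133.

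**Figure D3:**
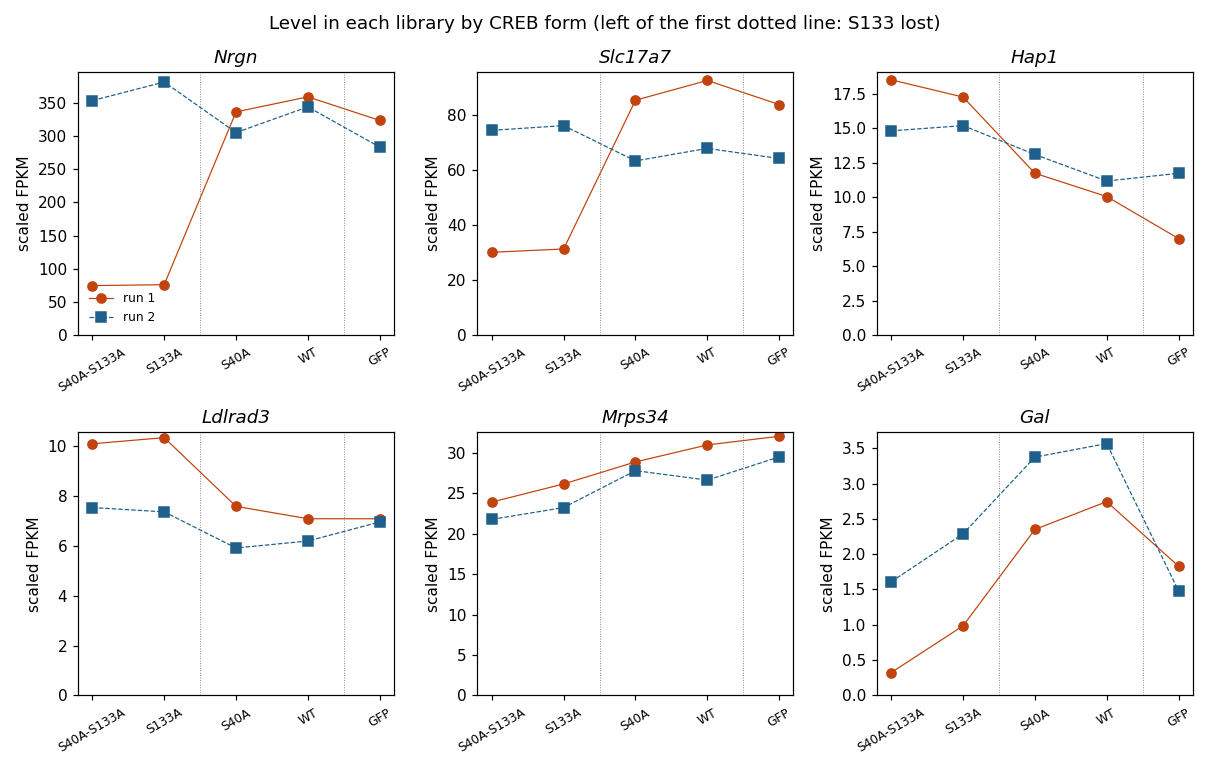
Scaled FPKM in each library for Nrgn, Slc17a7, Hap1, Ldlrad3, Mrps34 and Gal, by CREB form from S40A-S133A and S133A on the left to S40A, WT and GFP (points of one run are joined, run 1 in orange and run 2 in blue). Nrgn and Slc17a7, taken from the genes apart in run 1, are low in the S133-lost libraries of run 1, at 74.7 and 76.1 for Nrgn, and not in those of run 2. Hap1, Ldlrad3, Mrps34 and Gal differ the same way in both runs by the choice of genes.

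Gene lists were described by counts and medians beside those over all entries, and no member of any list passed the adjusted threshold in the pooled comparison. Immediate early transcription factors, which are transcribed within minutes of depolarization, split by S40 status. Of 27 tested, 18 were higher and 9 lower without S133, with a median of 0.13 that was 0.06 in run 1 and 0.20 in run 2. The median of S133A minus WT was 0.56 in each run, and that of S40A-S133A minus S40A was -0.43 in run 1 and -0.15 in run 2. At unadjusted p under 0.05, 0 were higher, beside 5.74% of all entries, and 1, Klf10, was lower, beside 4.83%.

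The difference between those contrasts was the S133 by S40 interaction, with 3 residual degrees of freedom. By limma with Benjamini-Hochberg adjustment 7 entries passed (0.0595%), all of them small RNAs. They were Snord99, Snord49a, Snora68, Mir6910, Mir124a-3, Mir27a and Mir7673. At unadjusted p under 0.05 there were 723 entries (6.15%), 533 below 0 (4.53%) and 190 above 0 (1.62%). Of the 27 immediate early factors, 21 were below 0 at unadjusted p under 0.05 and 2 above, and their median interaction was -0.92, with -1.13 in run 1 and -0.63 in run 2. Of 42 known CREB target genes, 17 were below 0 at unadjusted p under 0.05 and 1 above, with a median of -0.67. Both lists share members, such as Maff, so their counts are not separate results.

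Npas4, a neuronal activity-dependent transcription factor, was at 88.0 and 153 in S133A and at 76.0 and 146 in S40A-S133A, against 37.3 and 83.1 in WT and 85.3 and 173 in S40A. WT was the lowest of the 4 forms in both runs. The interaction was -1.25 (limma adjusted p = 0.181), the pooled S133 difference 0.42 ± 0.26 (SE), and the GFP libraries were at 32.2 and 182.

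Fos, the founding member of the AP-1 family, was at 487 and 568 in S133A and at 433 and 607 in S40A-S133A, against 265 and 455 in WT and 517 and 689 in S40A. Again WT was lowest and S40A highest within each run. Nr4a1, an orphan nuclear receptor, was at 182 and 372 in S133A and at 151 and 358 in S40A-S133A, against 88.0 and 228 in WT and 243 and 394 in S40A. For Fos and Nr4a1 the S133A and S40A-S133A libraries lay between WT and S40A in both runs.

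Bdnf, the brain-derived neurotrophic factor and a CREB target, was at 6.28 and 32.4 in S133A and at 5.74 and 26.6 in S40A-S133A, against 2.84 and 12.9 in WT and 16.6 and 27.0 in S40A. Its pooled difference was 0.19 ± 0.44 (SE), S133A minus WT was 1.09 and S40A-S133A minus S40A was -0.70. Trib1, a pseudokinase, was at 10.9 and 41.7 in S133A and at 9.58 and 38.6 in S40A-S133A, against 4.29 and 20.9 in WT and 10.5 and 47.6 in S40A, an interaction of -1.27. Arc, a regulator of AMPA receptor endocytosis, differed from these genes. It was at 16.1 and 59.0 in S133A and at 17.7 and 66.4 in S40A-S133A, against 27.2 and 57.7 in WT and 36.7 and 72.5 in S40A, lower without S133 in 3 of 4 pairs (-0.46 ± 0.18, SE).

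Other genes named for the interaction had small pooled differences. Spry2, an inhibitor of receptor tyrosine kinase signalling, and Gpr19, an orphan receptor, had interactions of -0.90 and -0.87. Above 0 were Ier3, an immediate early response gene (0.55), Gpr50, a melatonin receptor relative (1.06), Utp15, a ribosome biogenesis factor (0.46), and Rpl38 (1.61), a ribosomal protein whose near-identical copies make its value uncertain. None passed the adjusted threshold.

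In the earlier 8 h set, which holds no library without S133, S40A was above WT for 3 and 0 of the 27 immediate early factors in its 2 runs, against 24 and 25 of 27 in the later runs. There the median of S40A minus WT over the 27 immediate early factors was -0.27 and -0.88 in its 2 runs, against 0.98 and 0.55 in the later runs. When all 16 libraries at 8 h entered the fit, 0 of the 27 had an interaction below 0 at unadjusted p under 0.05, and 3 entries passed by limma. With the later GFP libraries in the fit the count was 9, and without run as a term it was 1. S133A was set against the same later WT libraries, and 987 entries were higher (8.39%) and 435 lower (3.7%) at unadjusted p under 0.05. By limma 5 entries passed (0.0425%), Snora41, Snord99, Ubxn8, Snora68 and Mir27a. For S40A-S133A against S40A the counts were 127 higher (1.08%) and 218 lower (1.85%), and 6 entries passed by limma (0.051%).

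**Figure D4:**
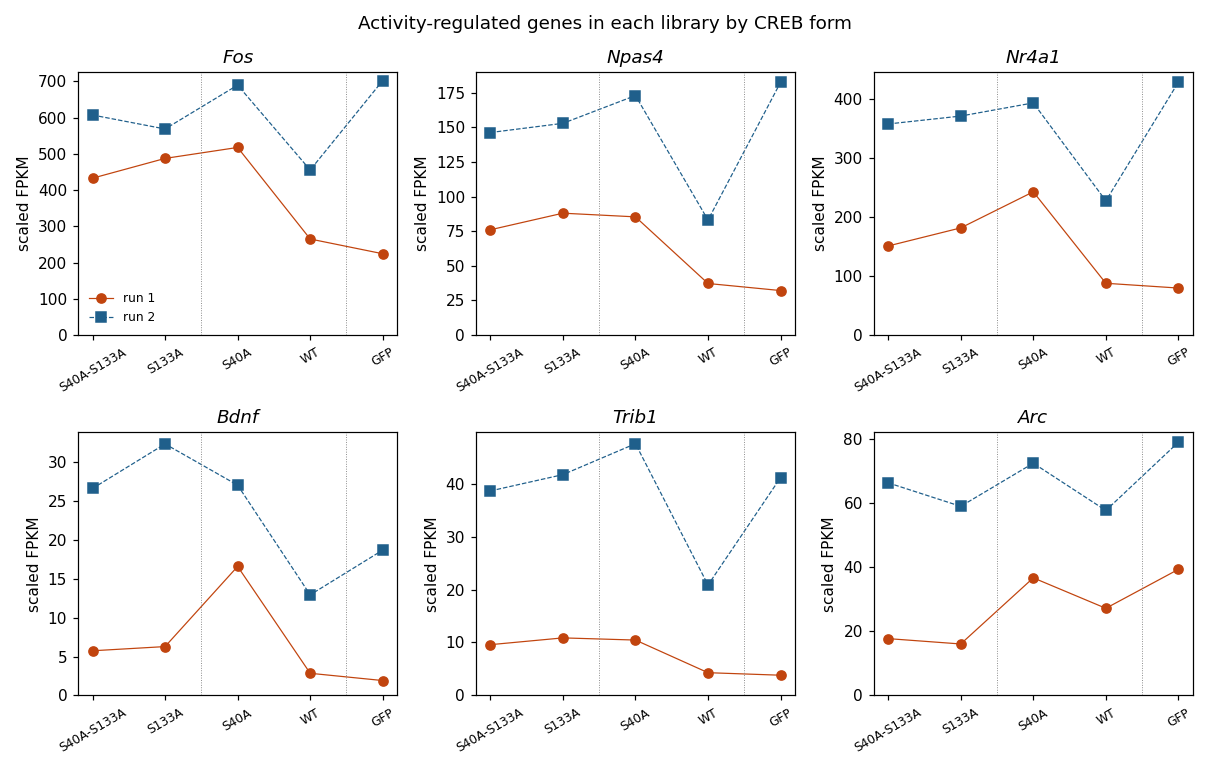
Scaled FPKM of Fos, Npas4, Nr4a1, Bdnf, Trib1 and Arc in each library, by CREB form from S40A-S133A and S133A on the left to S40A, WT and GFP (run 1 in orange, run 2 in blue, points of one run joined). WT is the lowest CREB form in both runs for the first 5 genes, for example 37.3 and 83.1 for Npas4, and for Arc the S133-lost libraries of run 1, at 16.1 and 17.7, are the lowest.

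In the other activity lists both contrasts also lay on opposite sides of 0, so that the pooled medians say little of either. These lists share members too, such as Scg2 and Dusp1. Among 42 genes listed as CREB targets, the median was 0.22 for S133A minus WT and -0.27 for S40A-S133A minus S40A. Pooled it was 0.02, which was -0.02 in run 1 and 0.07 in run 2, with 22 genes above and 20 below 0. At unadjusted p under 0.05 in the pooled comparison, 0 were higher, beside 5.74% of all entries, and 2 lower, beside 4.83%. The lower ones were Gal and Ppp1r15a, a phosphatase subunit of the stress response, a share of the list close to that of all entries. For 40 activity-regulated effectors the medians were 0.23 and -0.18, and 0.02 pooled, which was -0.04 in run 1 and 0.10 in run 2. For 29 signal feedback inhibitors, such as the dual-specificity phosphatases, they were 0.28 and -0.04, and 0.08 pooled, which was 0.10 in run 1 and 0.06 in run 2. For 23 neuropeptide and granin precursors they were 0.10 and -0.47, and -0.04 pooled, which was -0.13 in run 1 and 0.02 in run 2. In the S40A-S133A against S40A contrast 6 of these 23 were lower and 0 higher at unadjusted p under 0.05, beside 1.85% and 1.08% of all entries.

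CREB's binding site was looked for in RefSeq promoter windows (GRCm38.p6, 250 bases before to 50 after each start). The full palindrome TGACGTCA reads the same on both strands and was in 588 of 32851 windows (1.79%). Among tested named genes with a window it was in 343 of 8843 (3.88%). The examples printed are list members that hold it, with the palindrome in capitals, each on its gene's strand.
Scg2, chr1:79440071-79440110, minus strand: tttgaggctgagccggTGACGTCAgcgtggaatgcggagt
Dusp1, chr17:26508592-26508631, minus strand: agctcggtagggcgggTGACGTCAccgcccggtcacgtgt
Btg2, chr1:134079298-134079337, minus strand: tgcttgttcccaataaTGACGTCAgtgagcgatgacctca
Sst, chr16:23890869-23890908, minus strand: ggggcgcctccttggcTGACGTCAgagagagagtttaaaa
Cartpt, chr13:99900772-99900811, minus strand: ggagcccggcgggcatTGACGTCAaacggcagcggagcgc
Maff, chr15:79347475-79347514, plus strand: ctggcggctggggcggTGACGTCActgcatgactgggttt

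Genes with the palindrome differed little in the pooled comparison. Of the 343, 207 (60.3%) were higher without S133, with a median of 0.03, against 52.2% of the 8500 genes without it, with a median of 0.01. At unadjusted p under 0.05, 9.62% of the genes with the palindrome and 10.3% of the others had a pooled difference. For the interaction the shares were 12.8% (44 genes, 41 of them below 0) with the palindrome and 5.74% (488 genes, 350 below 0) without it. No test of these shares was made. The interaction shares rest on the 723 entries at unadjusted p under 0.05 by limma. That count was 81 without run as a term, 391 with the later GFP libraries and 138 with all 16 libraries at 8 h. The shares were not recomputed under those settings.

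Individual members with the palindrome varied. Dusp1, a phosphatase of MAP kinases, was at 43.9 and 49.1 in S133A and at 39.4 and 42.7 in S40A-S133A, against 21.8 and 31.9 in WT and 39.2 and 50.1 in S40A, with WT lowest in both runs. Btg2, an antiproliferative factor, was at 3.41 and 8.51 in S133A and at 2.93 and 6.68 in S40A-S133A, against 1.39 and 4.49 in WT and 4.57 and 7.61 in S40A. Sst, the somatostatin precursor in which the CRE was first described, was at 184 and 125 in S133A and at 189 and 162 in S40A-S133A, against 84.5 and 108 in WT and 143.3 and 195 in S40A, a pooled 0.36 ± 0.21 (SE) that was -0.03 with run 2 alone. Cartpt, the precursor of the CART peptide, was at 3.72 and 6.19 in S133A and at 3.17 and 7.496 in S40A-S133A, against 7.18 and 5.13 in WT and 18.5 and 10.9 in S40A. Its groups overlapped and its highest library was S40A of run 1. The windows of Fos, Npas4, Nr4a1, Bdnf, Junb, Spry2 and Gal held no such palindrome, which says only that those letters are not in these windows.

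Of CREB's relatives and coactivators, 13 of 19 tested were higher and 6 lower without S133, with a median of 0.07 that was 0.14 in run 1 and 0.02 in run 2. Of these, 4 were higher at unadjusted p under 0.05, beside 5.74% of all entries, and 0 were lower, beside 4.83%. Ep300, which encodes p300, was at 15.4 and 13.3 in S133A and at 16.2 and 13.4 in S40A-S133A, against 12.7 and 11.8 in WT and 13.3 and 12.9 in S40A. The groups touched without overlap, and the difference was 0.19 ± 0.05 (SE). Crebbp, which encodes CBP, differed by 0.08 in run 1 and 0.02 in run 2, and its groups overlapped. Crem, a CREB relative, was at 17.5 and 51.3 in S133A and at 18.2 and 48.1 in S40A-S133A, against 18.8 and 37.3 in WT and 45.2 and 52.3 in S40A, with S40A of run 1 far above the other run 1 libraries.

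Of 33 kinase, phosphatase and regulatory genes acting on S133, 21 were higher and 12 lower, with a median of 0.05 that was 0.01 in run 1 and 0.08 in run 2. Those at unadjusted p under 0.05 were 3 higher, beside 5.74% of all entries, and 1 lower, beside 4.83%. The higher ones were Gsk3b, a kinase that phosphorylates CREB after S133 (0.23 in run 1 and 0.13 in run 2), Prkar2b, a regulatory subunit of protein kinase A (0.35 and 0.05), and Pkia, an inhibitor of that kinase. The lower one was Rps6ka1, the RSK kinase RSK1 (-0.39 in run 1 and -0.14 in run 2). For O-GlcNAc enzymes, 8 of 9 tested were higher and 1 lower, with a median of 0.07 that was 0.11 in run 1 and 0.04 in run 2. Ogt was at 40.1 and 31.0 in S133A and at 40.5 and 31.9 in S40A-S133A, against 32.1 and 31.2 in WT and 35.7 and 32.5 in S40A, higher in run 1 and not in run 2. Gfpt2, which makes the sugar precursor, was lower in all 4 pairs (-0.46 in run 1 and -0.39 in run 2). Of 17 SUMO genes 11 were higher and 6 lower, with a median of 0.02 that was 0.09 in run 1 and -0.01 in run 2. Pias4, a SUMO ligase, was at 13.2 and 12.5 in S133A and at 12.0 and 12.7 in S40A-S133A, against 18.2 and 17.4 in WT and 13.8 and 13.4 in S40A. The groups did not overlap, and both WT libraries were well above the other 6.

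Of 35 nuclear-encoded subunits of oxidative phosphorylation, 33 were lower and 2 higher, against 47.5% of all entries lower. Their median was -0.10, with -0.14 in run 1 and -0.04 in run 2. It was -0.02 for S133A minus WT, where 11 of 35 were higher, and -0.15 for S40A-S133A minus S40A, where all 35 were lower. In run 1 and run 2 the median was -0.07 and 0.02 for S133A minus WT, and -0.19 and -0.07 for S40A-S133A minus S40A. S40A was above WT for 29 and 33 of the 35 in these runs, against 35 and 19 in the 2 runs of the earlier 8 h set. In 4 of 4 pairs 13 of the 35 were lower, beside 8.84% of all entries, and at unadjusted p under 0.05, 5 were lower, beside 4.83% of all entries, and 0 higher. Summed over the list, scaled FPKM was 4635 and 4997 in S133A and 4370 and 5319 in S40A-S133A, against 4960 and 4914 in WT and 5152 and 5682 in S40A. These sums overlapped between the groups, and S40A of run 2 was the highest.

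Sdhd, a membrane anchor of succinate dehydrogenase, differed by -0.12 in run 1 and -0.10 in run 2, and Ndufs1, a core subunit of complex I, by -0.14 and -0.09. Atp5b, the beta subunit of ATP synthase, differed by -0.19 in run 1 and -0.0193 in run 2, and Cox4i1, of cytochrome c oxidase, by -0.20 and -0.0281, nearly all of it in run 1. Of 22 glycolysis genes 17 were lower and 5 higher, with a median of -0.09, which was -0.18 in run 1 and -0.01 in run 2. Aldoa, aldolase A, was at 175 and 223 in S133A and at 158 and 234 in S40A-S133A, against 226 and 216 in WT and 240 and 247 in S40A, and was thus low in the libraries without S133 of run 1.

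Of 69 ribosomal protein genes 25 were higher and 44 lower, with a median of -0.03 that turned to 0.15 when all 16 libraries at 8 h entered the fit. In the chaperone list 10 of 18 were higher and 8 lower (median 0.01), in the unfolded protein list 15 of 25 were higher and 10 lower (median 0.04, -0.04 with run 2 alone), and in the apoptosis list 15 of 27 were higher and 12 lower (median 0.05, 0.00541 with run 2 alone). Of 4 tested interferon genes 0 were higher and 4 lower (median -0.06). Of 17 clock genes 10 were higher and 7 lower, with a median of -0.11 in run 1 and 0.08 in run 2, and Arntl, the clock activator BMAL1, was at 15.1 and 13.0 in S133A and at 14.4 and 13.0 in S40A-S133A, against 18.3 and 16.7 in WT and 16.5 and 14.0 in S40A. It was lower within each run and overlapped across them (-0.22 ± 0.05, SE).

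Of 26 growth cone genes 20 were higher and 6 lower, beside 52.5% of all entries higher, with a median of 0.11 that was 0.12 in run 1 and 0.07 in run 2. It was 0.21 for S133A minus WT, where 22 were higher, and -0.00900 for S40A-S133A minus S40A, where 15 were lower. With an unadjusted p under 0.05 there were 5 higher, beside 5.74% of all entries, and 0 lower, among them Dpysl3, a collapsin response mediator (0.27 in run 1 and 0.19 in run 2), and L1cam, an axonal adhesion molecule (0.17 and 0.15). Gap43, a growth cone protein, was at 492 and 384 in S133A and at 483 and 369 in S40A-S133A, against 384 and 312 in WT and 476 and 361 in S40A, and the groups overlapped. Synaptic components had 19 of 36 higher and 17 lower, with a median of -0.03 in run 1 and 0.10 in run 2. Voltage-gated channels had 14 of 36 higher and 22 lower, with a median of -0.05 in run 1 and 0.01 in run 2.

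**Figure D5:**
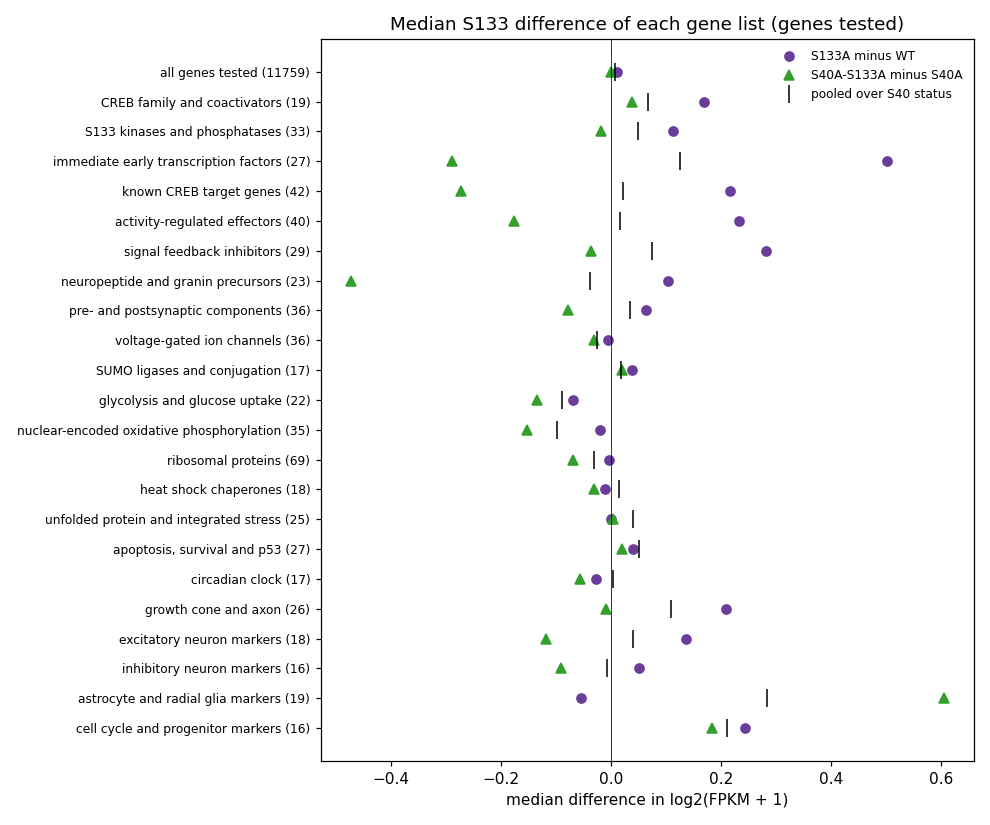
Median difference in log2(FPKM + 1) of each gene list with at least 15 tested genes, for S133A minus WT (purple circles), S40A-S133A minus S40A (green triangles) and pooled over S40 status (black ticks), with the number of genes tested in brackets. Both contrasts lie on opposite sides of 0 for immediate early factors, at 0.50 and -0.29, and on the same side for oxidative phosphorylation, at -0.02 and -0.15. For the latter list S133A minus WT was -0.07 in run 1 and 0.02 in run 2.

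Markers of the cell types in the cultures were measured beside these results. Excitatory neuron markers were present in every library, with Nrgn and Slc17a7 among them, and summed to 763 and 1138 scaled FPKM in S133A and to 708 and 1061 in S40A-S133A, against 1106 and 988 in WT and 1139 and 1002 in S40A. Both libraries without S133 of run 1 were low. Without Nrgn and Slc17a7, already described as low there, the other 16 markers summed to 655 and 680 in S133A and to 603 and 633 in S40A-S133A, against 654 and 576 in WT and 718 and 634 in S40A, and the groups overlapped. Inhibitory neuron markers (7 of 16 higher, 9 lower, median -0.01) summed to between 533 and 651 without S133, against 443 to 744 with S133.

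Astrocyte and radial glia markers were higher for 16 of 19 tested and lower for 3, with a median of 0.28. Of the 19, 1 had an unadjusted p under 0.05, beside 10.6% of all entries. Their sum was 270 and 665 in S133A and 577 and 436 in S40A-S133A, against 306 and 582 in WT and 234 and 337 in S40A. Fabp7, a radial glia lipid-binding protein, was at 75.2 and 166 in S133A and at 243 and 93.4 in S40A-S133A, against 78.7 and 116 in WT and 47.2 and 59.7 in S40A. The highest and the lowest libraries differed by form and run without an order by S133, and the groups overlapped. All 16 of 16 cell cycle genes were higher, with a median of 0.21 that was 0.42 in run 1 and -0.02 in run 2, and none had an unadjusted p under 0.05. Their sum was 92.1 and 111 in S133A and 114 and 114 in S40A-S133A, against 64.6 and 106 in WT and 81.4 and 128 in S40A.

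Oligodendrocyte markers (4 of 7 tested higher, 3 lower) summed to between 40.1 and 89.8 without S133, against 45.9 to 66.5 with S133. Microglial markers summed to 14.7 to 19.6 without S133, against 10.2 to 19.0 with it, vascular and fibroblast markers to 15.6 to 23.8 against 18.4 to 28.5, and blood markers to 0.593 to 5.31 against 1.19 to 3.73. The part of cell makeup in the neuronal and glial differences was not tested.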

How the data were processed

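RNA was sequenced from depolarized mouse cortical neurons. Each library has its own table of FPKM, deposited by the authors, with 24490 entries. Per the submitters' processing notes, CASAVA 1.7, Bowtie 0.12.2 and Cufflinks (no version given) were used, and the builds mm8 and mm10 are named without a role. Of 22465 symbols shared with GENCODE M21, 99.4% had deposited positions that overlap the GRCm38 (mm10) gene. How multiply mapped reads and strand were handled is not stated, so near-identical and overlapping genes are uncertain. FPKM is already divided by length and library size. Of the entries, 19 with a failed Cufflinks status in any 8 h library were removed.

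Groups and replicate numbers came from the labels, and runs from the given rule and the numbers in the deposited file names. Values were scaled by median-of-ratios factors, 1 FPKM was added, and log2 values were tested with limma 3.58.1 in R 4.3.3 (mean-variance trend, two-sided, Benjamini-Hochberg over 11759 entries with a mean of at least 1 FPKM). Terms were S133, S40 and run, plus an S133 by S40 term for the interaction. The fits were tested on simulated data with independent normal errors. For the pooled and S40 interaction fits these data held no S133 by run difference, so behaviour under such a difference was not tested. Same-run libraries deviated together from their group means (r from 0.528 to 0.810, 6 pairs), and each of the 8 libraries correlated best with one of its run, so run was kept as the block.

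Fragment depth was estimated from the deposited FPKM confidence limits, taken as 2 SD, for single-transcript genes and summed over all entries. The comparison, its members and the 28 gene lists were chosen with earlier results of these data known. Named genes were the 12 per direction and the 4 per direction of the interaction described in the report, up to 4 of each list (2 smallest p, 2 highest level), and Creb1, Fos, Npas4, Nr4a1, Bdnf, Crem, Arc, Ogt, Pias4 and Gap43. Genes of the run difference were named after their values were seen. A difference smaller than its SE was taken to have no direction when alternatives were compared. No 2 libraries held identical values. Sequences came from RefSeq promoter windows (GRCm38.p6) and GENCODE M21. Scaling, pseudocount, filter, terms and libraries were varied as given in the closing section.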

Additional observations from a re-analysis of the deposited data

Results flagged for a closer look

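Single libraries lay far from the other 3 of their group, by Dixon's ratio of the gap to the range past its 95% critical value, in 6 of 280 groups of 140 named genes, and chance gives about 1 in 20 groups. Without S133 these were Rnmtl1 (0.939), Sae1 (0.955) and Basp1 (0.938). With S133 they were Rcor3 (0.888), Rps27 (0.857) and Mbp (0.979).

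The S133 difference depended on S40 status by the interaction test for 7 small RNA entries, all listed at 0 in some libraries, so that the log2 values depend on the pseudocount and are no fold changes. The interaction was -9.42 for Mir6910, which was at 330 and 553 scaled FPKM in S133A and listed at 0 in S40A-S133A, against 338 and 228 in WT and 470 and 423 in S40A. It was 9 for Snord49a and 8.18 for Mir7673, both above 0 in S40A-S133A alone of the 4 forms. It was -5.15 for Mir27a, above 0 in S133A alone, -7.40 for Mir124a-3, above 0 in S40A alone, and 9.96 for Snord99, above 0 in WT alone and in 1 of the 2 GFP libraries. For Snora68 it was 5.77, with S133A listed at 0 and S40A-S133A at 45.7 and 30.4, against 93.7 and 123 in WT and 64.8 and 86.7 in S40A.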

How the results depend on the processing

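The pooled count of called entries, 1, was 8 with the S40 interaction in the fit, 6 with the later GFP libraries, 3 with all 16 libraries at 8 h, 105 in run 1 alone, 21 in run 2 alone, 201 with an S133 by run term (added after seeing the data) and 1 to 2 without any 1 library. Each single-run fit held only the 4 libraries of its run. Small RNAs made up 18 of the 105 calls in run 1 alone and 18 of the 21 in run 2 alone. The count at unadjusted p under 0.05, 1243, was 711 with all 16 libraries, 2204 in run 1 alone, 362 in run 2 alone, 2144 with the run term and 386 to 1764 without any 1 library (386 without WT replicate 3, 652 without S133A replicate 1, 670 without S40A-S133A replicate 1). Without the replicate block (run as a term) it was 315, and the interaction count was 81 against 723. The interaction calls, 7, were 3 with all 16 libraries and 16 to 33 without 1 library. Its 723 entries were 391 with GFP libraries, 138 with all 16 and 421 to 798 without 1 library. S133A minus WT, 5 calls, gave 2 with GFP libraries, 2 with all 16, 3 with a pseudocount of 0.1, 3 with a mean of at least 5 FPKM and 6 to 33 without 1 library. S40A-S133A minus S40A, 6 calls, gave 1 with all 16 and 5 to 30 without 1 library. Immediate early factors with an interaction below 0, 21, were 1 without the block, 9 with GFP libraries, 0 with all 16 and 12 to 19 without 1 library. Known CREB targets, 17, were 1, 8 and 0 under the same settings and 13 to 19 without 1 library. The cause was not tested.

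In run 2 alone the pooled differences turned to -0.0335 for Sst, 0.0431 for Syp, -0.0236 for Mgea5, -0.0260 for Ogt, -0.0410 for Sae1, 0.17 for Nrgn, 0.14 for Mef2c, -0.056 for Gad1 and -0.0655 for Sox2. With all 16 libraries they turned to 0.00461 for Rplp1 and 0.026 for Hspd1, and Glul ranged from -0.00952 (without S40A-S133A replicate 1) to 0.225 (without S133A replicate 1). Of 3151 gene values under alternatives, 3111 kept their call and direction. In the pooled comparison only Snora41 had a call to lose, and sign changes of differences smaller than their SE counted as kept. Bdnf, for example, ranged from -0.158 to 0.673 without any 1 library. Oxidative phosphorylation genes were lower in 28 of 35 in run 2 alone and in 30 to 35 without any 1 library. Snora41 no longer passed with the GFP libraries or with all 16. Of 614 list medians under alternatives 7 moved by more than the spread of pairs. That spread includes the difference between runs, so a list that varied widely between pairs could shift far without being counted. The astrocyte and radial glia median, not among the 7, ranged from 0.00727 to 0.544 without any 1 library. Ribosomal proteins turned to 0.1542 with all 16 libraries, the unfolded protein list to -0.0355 in run 2 alone and -0.0333 without S40A-S133A replicate 1, and microglia markers to -0.113 with a mean of at least 5 FPKM. Apoptosis genes were at 0.00541 in run 2 alone, and in run 1 alone SUMO genes were at 0.0775 and glycolysis genes at -0.193. Values of short entries are limited by estimates of 0.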
